A study of Mus musculus with 2 samples.

Results

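The enzymes of nucleotide synthesis described here are the products of 9 genes: Rrm1, Rrm2, Tyms, Tk1, Dut, Dck, Dtymk, Cad and Umps. They were chosen by name, with earlier results of these data known. All 9 of 9 were found among the 33224 gene symbols of the deposited expression table, in 10 of its 38016 loci. The mice were C57BL/6, and their regenerating livers were sampled for RNA-seq 48 hr after partial hepatectomy (PH), the surgical removal of most of the liver. There were 2 libraries, 1 from wild-type (WT) mice and 1 from PPARbeta-null (KO) mice, which lack the nuclear receptor PPARβ in all tissues. Both groups were male and underwent PH, and the labels give an age of 4 months for each. How many mice stood behind a library is not stated in the sources used here. With 1 library per genotype there was no spread between mice and no test of genotype, and all comparisons are between these 2 libraries.

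A cell that copies its genome needs a supply of the 4 deoxynucleotides. Ribonucleotide reductase makes them from ribonucleotides, thymidylate synthase and its partners make the thymidine nucleotide, salvage kinases recover nucleosides, and the de novo pathway builds the pyrimidine ring used for both RNA and DNA. Most hepatocytes of the adult liver are at rest. After PH they re-enter the cell cycle, and genes of deoxynucleotide synthesis are known to be expressed mainly around S phase.

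All 9 genes had a lower FPKM (fragments per kilobase of transcript, corrected for the number mapped in each library) in the KO than in the WT library, as did 75.6% of the 11723 genes whose mean FPKM reached 1. After centring on the median of all genes, 8 of the 9 were lower and the joint row of Cad was not. The 7 genes of deoxynucleotide supply, Rrm2, Tk1, Rrm1, Tyms, Dck, Dut and Dtymk, were between 2.66-fold and 46.3-fold lower. The genes of the de novo pyrimidine pathway, Cad and Umps, differed by less than 2-fold. Thus 7 of 9 genes passed a 2-fold difference and were lower in KO, while 8.69% of those 11723 genes did so. None of the 9 passed 2-fold in the other direction, as did 1.77% of all genes. Past 1.5-fold there were 8 of 9 lower in KO (all genes 19.9% lower and 4.2% higher), and past 3-fold 6 of 9 (all genes 4.15% lower and 0.614% higher). Both libraries had an FPKM above 1 for each of the 9, so none entered through the WT library alone. Over the 9 genes, log2 KO/WT had a median of -2.61 (pseudocount 0.1 FPKM). That of all genes was -0.24, which corresponds to a WT/KO ratio of 1.18. Of all genes, 1019 were more than 2-fold lower and 207 more than 2-fold higher in KO, and with the libraries scaled to equal upper quartiles these counts were 751 and 304. The 7 genes past 2-fold were the same number under each of the 3 other scalings.

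**Figure D1:**
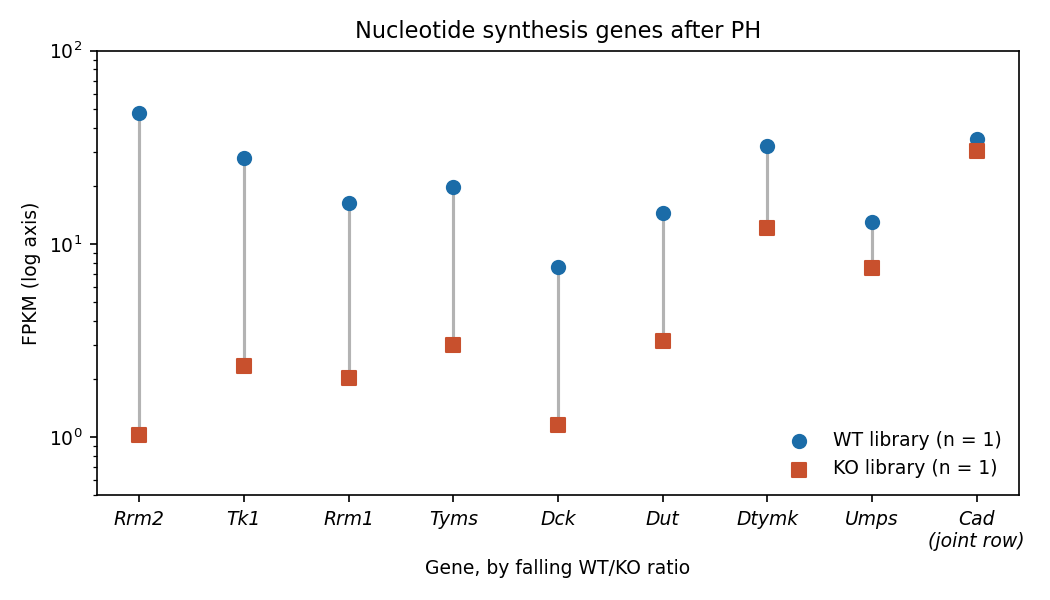
FPKM (log axis) of the 9 genes in the WT library (circles) and the KO library (squares), 1 library each, ordered by falling WT/KO ratio; grey lines join the values of a gene. WT values lie between 7.58 and 47.5, while the KO values of Rrm2 and Dck lie near 1 and the joint row of Cad is close in both libraries.

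Depth was read from low values of single-exon genes. Only values of FPKM times length in kb between set bounds of 0.012 and 0.024 were kept. Their median, 0.0182 in WT and 0.0179 in KO, was taken as that of 1 fragment. The estimate could fall only between the set bounds, and all fragment numbers and counting intervals rest on it. They also rest on the length of the longest coding transcript of each gene. Which transcripts were present was not tested. On a transcript of 1 kb, 1 FPKM stood for about 54.9 fragments of the WT and 56.0 of the KO library. These estimates gave each gene an interval of its ratio that covers counting error only and says nothing of the difference between mice. The targeted gene Ppard had 2.67 FPKM in WT and 2.42 FPKM in KO, so the level of the whole locus did not separate the libraries. The sample entries beside the deposited values name lane 2 for the WT and lane 3 for the KO library, so lane and genotype cannot be told apart.

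The promoters of Rrm2, Tk1 and Rrm1, which had the largest ratios, are shown beside that of Umps, which had a small one. Each sequence is the 300-base RefSeq window (GRCm38.p6 table) around the start site. On NCBIM37, the build of the deposited loci, the windows matched exactly once, at chr12:25392869-25393168 on the plus strand for Rrm2 and chr11:117687279-117687578 on the minus strand for Tk1. For Rrm1 the window is chr7:109589959-109590258 on the plus strand, and for Umps chr16:33967075-33967374 on the minus strand. Capitals mark the letters TCCCGC or TGGCGC, on either strand, which are the inner part of the site bound by E2f factors.
Rrm2: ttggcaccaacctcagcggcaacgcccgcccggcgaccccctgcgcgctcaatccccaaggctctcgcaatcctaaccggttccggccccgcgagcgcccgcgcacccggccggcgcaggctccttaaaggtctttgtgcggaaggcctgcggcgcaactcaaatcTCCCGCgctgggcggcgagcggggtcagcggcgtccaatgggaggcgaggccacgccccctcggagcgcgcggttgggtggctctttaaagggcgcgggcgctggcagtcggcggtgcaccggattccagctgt
Tk1: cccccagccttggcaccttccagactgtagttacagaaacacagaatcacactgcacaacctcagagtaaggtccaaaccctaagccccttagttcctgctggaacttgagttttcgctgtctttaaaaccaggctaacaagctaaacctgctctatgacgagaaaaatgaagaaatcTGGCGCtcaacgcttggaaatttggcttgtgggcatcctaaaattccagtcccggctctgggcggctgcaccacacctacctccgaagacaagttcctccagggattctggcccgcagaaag
Rrm1: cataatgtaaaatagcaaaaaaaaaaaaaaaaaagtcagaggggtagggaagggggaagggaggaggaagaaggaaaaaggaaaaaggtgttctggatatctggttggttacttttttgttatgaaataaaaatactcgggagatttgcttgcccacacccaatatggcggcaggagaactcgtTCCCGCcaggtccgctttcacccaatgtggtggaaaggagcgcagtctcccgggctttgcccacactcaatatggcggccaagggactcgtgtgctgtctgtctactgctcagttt
Umps: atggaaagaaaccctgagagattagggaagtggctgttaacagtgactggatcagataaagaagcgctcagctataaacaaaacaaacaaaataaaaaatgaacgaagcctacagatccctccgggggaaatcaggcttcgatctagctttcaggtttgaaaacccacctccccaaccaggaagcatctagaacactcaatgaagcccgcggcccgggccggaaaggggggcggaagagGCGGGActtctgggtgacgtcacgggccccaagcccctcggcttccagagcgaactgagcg

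Windows of all 9 genes were in the RefSeq table. The longer E2f letters TTTCCCGC and TTTGGCGC were in none of the 9, against 1.07% and 0.514% of the 32851 windows of the table. At least 1 of the inner letters TCCCGC and TGGCGC was in all 9 windows, those of Cad and Umps included, and in 27.7% of all windows. Counted by gene and not by window, 52.5% of 7637 genes whose mean FPKM reached 1 had them in at least 1 window. As only 7637 of those 11723 genes had a window under the same symbol, that share is a description and a check against it would be void. The letters were also held, counted by gene, by 11 of 12 de novo purine genes, 8 of 9 S phase genes and 8 of 11 other pyrimidine genes. For genes of G2 and mitosis it was 5 of 6, and for purine salvage and breakdown 9 of 13. Lower counts were those of folate (4 of 7), other deoxynucleotide (7 of 16) and nucleoside transport genes (2 of 6). Thus they were not particular to the 9 genes. They were chosen after the sequences were seen. In the printed windows the first base of the match lies at -84 for Rrm2, -72 for Tk1, -66 for Rrm1 and -11 for Umps, counted from the RefSeq start site. For Tk1 this site lies 78 bases inside the annotated gene, so the match is within that gene. For Dut it lies 325 bases inside, and the whole window is within the annotated gene. The CCAAT letters were in 3 of 9 windows (Rrm1, Rrm2 and Dtymk) and in 37.4% of all windows. The GC box letters GGGCGG were in 7 of 9 and in 35.7% of all windows, with 6 matches in that of Dck. The CHR letters TTTGAA were in the windows of Dck and Umps and in 17.9% of all windows. The E-box letters CACGTG were in those of Tyms and Dtymk and in 7.15% of all windows. All motifs were searched on both strands, and a match of letters is a description of the window and not of binding. The inner E2f letters and the GC box can overlap, as they do in the window of Dut.

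Ribonucleotide reductase showed the largest difference. Rrm2 (chromosome 12, 25393106 to 25399011, plus strand, 10 exons in its longest coding transcript) encodes the small subunit that carries the radical needed for catalysis and is made in S phase. Its FPKM was 47.5 in WT and 1.03 in KO. WT was the higher by 46.3-fold, with a counting interval of 38.8 to 55.7 from about 5722 and 126 fragments. By WT/KO ratio Rrm2 was rank 76 of 11723 genes, counted from the largest. Rrm1 (chromosome 7, 109590209 to 109618285, plus strand, 19 exons) encodes the large subunit with the catalytic and allosteric sites. It had 16.4 FPKM in WT and 2.02 FPKM in KO, and a ratio of 8.10 (counting interval 7.35 to 8.96). The counting intervals of the 2 subunits did not overlap. Per length, Rrm2 was 2.90 times the level of Rrm1 in the WT library and 0.508 times in the KO library. In the order of the 9 levels, Rrm2 was the highest in WT and the lowest in KO.

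Rrm2b encodes an alternative small subunit that p53 induces and that serves resting cells. Its FPKM was 1.11 in WT and 0.737 in KO, so the levels were 1.5-fold apart. An annotated pseudogene inside the Rrm2b locus, Gm3362, had a row of its own at 43.6 and 34.4. Of the summed FPKM of Rrm2 and Rrm2b, Rrm2b made up 2.28% in WT and 41.8% in KO. The sum itself was 48.6 in WT and 1.76 in KO, so the larger share of Rrm2b in KO went with a lower and not a higher level of that gene. The Rrm2b transcript matches an unannotated copy on chromosome 13 over 4114 of its 4561 bases at up to 97.7% identity, and Rrm2 has such a copy over 726 of its 2193 bases, so reads of these stretches can be shared. The share of reads that this concerns was not tested.

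Thymidylate is made by Tyms, which methylates dUMP, with its substrate supplied by Dut and its product passed on by Dtymk. Tyms (chromosome 5, 30384742 to 30400162, minus strand, 7 exons) had 19.8 FPKM in WT and 3.01 FPKM in KO. The ratio was 6.58 (counting interval 6.00 to 7.22). A stretch of 377 of the 3163 bases of its longest coding transcript matches 3090 other places in the genome, and reads from this stretch may not have been placed uniquely. Dut (chromosome 2, 125072926 to 125084344, plus strand, 6 exons) encodes the dUTPase that forms dUMP and keeps uracil out of DNA. Its FPKM was 14.4 in WT against 3.15 in KO, with a ratio of 4.58 (counting interval 4.07 to 5.15). A second row of the table for Dut was listed at 0 in both libraries. Dtymk (chromosome 1, 95689153 to 95698511, minus strand) encodes the kinase that turns dTMP into dTDP. It had 32.1 FPKM in WT and 12.1 FPKM in KO, a ratio of 2.66 (counting interval 2.44 to 2.91). Of the 7 genes of deoxynucleotide supply it was the least different, and its KO level was the highest of the 7. Relative to Tyms, Dtymk was 1.62 times as high in WT and 4.01 times as high in KO, on the FPKM scale.

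Thymidine and deoxycytidine are salvaged by Tk1 and Dck, kinases of the cytosol. Tk1 (annotated gene on chromosome 11, 117676840 to 117687406, minus strand, 7 exons) had 27.9 FPKM in WT and 2.32 FPKM in KO. Its ratio of 12.0 (counting interval 10.4 to 14.1) was second to that of Rrm2 among the 9 genes. The locus is wider than the gene, from 117670982 to 117701323, and also holds Afmid and Syngr2 on the plus strand. Afmid and Syngr2 have a joint row of their own, at 69.8 in WT and 36.6 in KO, and without strand reads from overlapping exons cannot be told apart. An annotated pseudogene on chromosome 8, Gm6091, matches 1195 of the 1440 bases of the Tk1 transcript at up to 96.0% identity. Dck (chromosome 5, 89194021 to 89212306, plus strand, 7 exons) was the lowest of the 9 in WT, with an FPKM of 7.58, and had 1.16 in KO. Its ratio was 6.55 (counting interval 5.62 to 7.62), within the counting interval of Tyms. Tk1 was thus 3.69 times the level of Dck in WT and 2.01 times in KO.

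**Figure D2:**
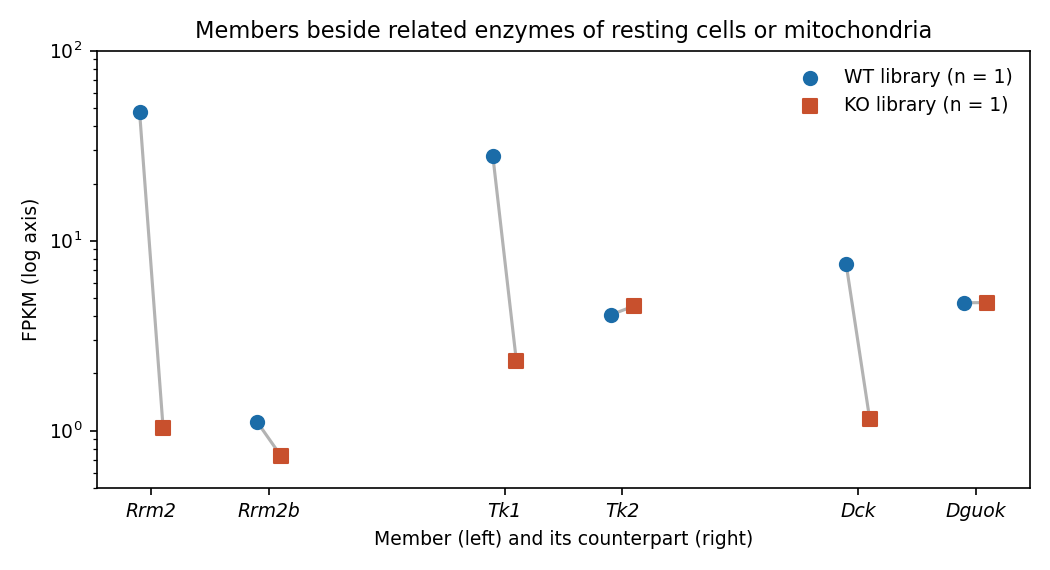
FPKM (log axis) of Rrm2, Tk1 and Dck, each to the left of a related enzyme, in the WT library (circles) and the KO library (squares), 1 library each. Rrm2, Tk1 and Dck are 46.3-fold, 12.0-fold and 6.55-fold lower in KO, whereas Rrm2b is 1.5-fold lower, Tk2 lies at 4.07 and 4.53, and Dguok at 4.71 and 4.72.

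The mitochondrial counterparts of the salvage kinases were at similar levels in both libraries. Tk2, which phosphorylates thymidine and deoxycytidine in mitochondria, had 4.07 FPKM in WT and 4.53 FPKM in KO. Dguok, the mitochondrial deoxyguanosine kinase, had 4.71 and 4.72. As a result, Tk1 was 6.87 times the level of Tk2 in WT and 0.512 times in KO.

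The de novo pyrimidine genes stood apart from the other 7. Umps (chromosome 16, 33954868 to 33967124, minus strand, 6 exons) encodes the enzyme that completes the pathway to UMP. Its FPKM was 12.9 in WT against 7.51 in KO, with a ratio of 1.72 (counting interval 1.61 to 1.83). An antisense gene in the locus, Gm15829, had a row of its own at 0.173 in WT and 0.239 in KO. Cad, which encodes the protein of the opening steps of the pathway, has no row of its own. Its row also names 0610007C21Rik, and the annotated Cad gene (chromosome 5, 31357153 to 31380852, plus strand) begins just past the end of that gene. The locus also overlaps Slc5a6, which had a row of its own at 3.95 in WT and 3.10 in KO. The joint row had 35.1 FPKM in WT and 30.4 FPKM in KO, a ratio of 1.15. This value belongs to both genes that the row names, so a level of Cad alone was not measured. The direction turned to higher in KO after centring on the median of all genes (log2 KO/WT 0.0297). Relative to that median, the ratio of Umps was 1.46, and that of Rrm2 was 39.2.

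**Figure D3:**
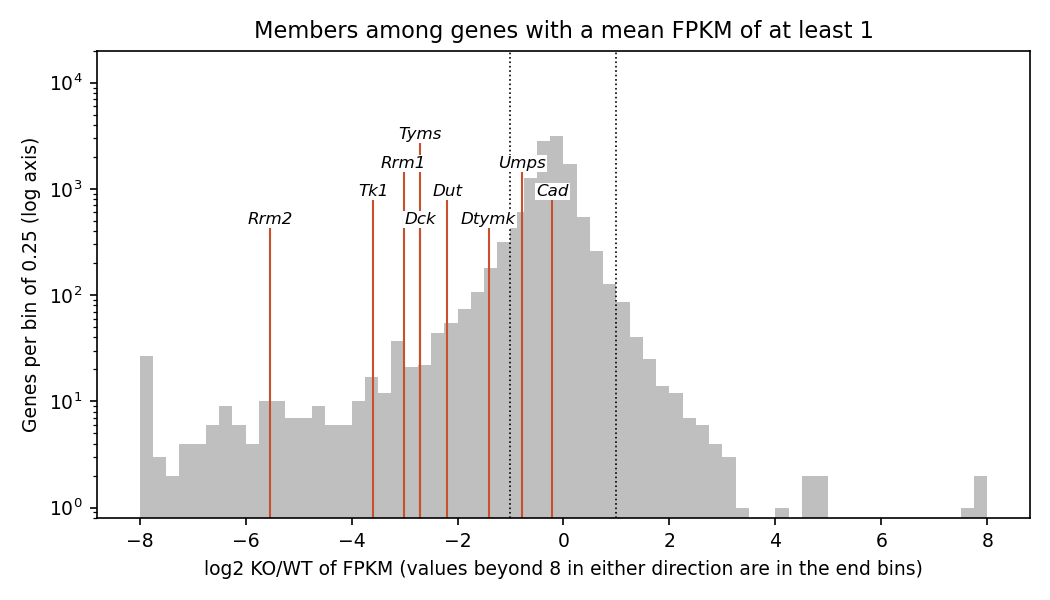
Number of genes (log axis) per bin of log2 KO/WT of FPKM, for genes whose mean FPKM reached 1 and whose values were above 0 in both libraries. Red lines mark the 9 genes and dotted lines a 2-fold difference, and Rrm2, Tk1, Rrm1, Tyms, Dck, Dut and Dtymk lie to the left of -1 while Umps and the joint row of Cad (which turns to the other side of 0 after centring on the median) lie between the dotted lines.

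The levels of the 9 genes were more alike in WT than in KO. The highest was 6.27 times the lowest in WT and 29.5 times in KO. Without the joint row of Cad, the KO factor was 11.7. In WT the order from the top was Rrm2, Cad (joint row), Dtymk, Tk1, Tyms, Rrm1, Dut, Umps and Dck. In KO it was Cad (joint row), Dtymk, Umps, Dut, Tyms, Tk1, Rrm1, Dck and Rrm2. Umps was at place 8 in WT and at place 3 in KO, and the neighbours Dut and Tyms in KO were close, at 3.15 and 3.01. How far neighbours in either order differ beyond the spread between mice cannot be said from 1 library each.

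Other genes of nucleotide metabolism were taken from 6 lists, of which 71 of 73 genes were found and 70 had a mean FPKM no lower than 0.1. Of these, 13 were more than 2-fold lower in KO (18.6%) and 4 more than 2-fold higher. Among the 15727 genes at that level, 13.4% were more than 2-fold lower and 2.79% more than 2-fold higher. These shares also stand beside the 2-fold counts of each of the 6 lists below. Past 1.5-fold, 30 of the 70 were lower (all genes 26.0% lower and 6.05% higher), and past 3-fold 5 were lower (all genes 6.36% lower and 1.11% higher). Over the 70 genes the median was -0.39 on the log2 scale, and that of all genes at this level was -0.25. After scaling to equal upper quartiles, 7 of the 70 were past 2-fold in the lower direction.

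Among 16 other genes of deoxynucleotide metabolism, 3 were more than 2-fold lower (18.8%, all genes 13.4%) and 1 more than 2-fold higher. Their median log2 was -0.21 and turned to 0.0256 after centring. Of the 13 whose mean FPKM reached 1, 1 was more than 2-fold lower and 1 more than 2-fold higher. The most abundant were Nme1 and Nme2, nucleoside diphosphate kinases that share 1 joint row with 366 FPKM in WT and 316 FPKM in KO. Cmpk1, the kinase of CMP and UMP, had 35.6 and 32.9. Nme4, a mitochondrial diphosphate kinase, was 2.38-fold lower in KO. The row of Tymp, thymidine phosphorylase, which breaks thymidine down, was 3.41-fold higher in KO, with 10.6 in WT and 36.2 in KO. It also names Odf3b and Sco2, so this value is not that of Tymp alone.

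In the 13 other pyrimidine genes, 3 were more than 2-fold lower and 2 more than 2-fold higher in KO. Upp2, a uridine phosphorylase of the liver, had 110 FPKM in WT and 12.0 FPKM in KO, a ratio of 9.20, the largest in the 6 lists among genes whose mean FPKM reached 1. Ctps2, which makes CTP from UTP, was 2.14-fold lower, and Uck2, the uridine-cytidine kinase, 2.06-fold lower in KO. Both came under 2-fold after scaling to equal upper quartiles or centring. The genes higher in KO both act in breakdown or deamination, but so does Upp2, which was lower in KO. Cda, cytidine deaminase, had 5.30 in WT and 10.9 in KO, and Dpys, dihydropyrimidinase, had 36.9 and 75.1. Of the other abundant breakdown genes, Dpyd had 124 in WT and 118 in KO. Upb1, whose rows include one shared with 7SK, had 106 and 80.6.

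All 13 genes of de novo purine synthesis were lower in KO, under each of the 4 scalings, but by small factors. Of all genes 75.6% were lower as deposited, 54.4% with equal upper quartiles, 50.4% after centring and 72.5% with equal sums of FPKM. Their median log2 was -0.60, and 2 of 13 passed 2-fold. These were Prps2, which makes the activated ribose, at 2.27-fold, and Adssl1, an adenylosuccinate synthase, at 2.20-fold. Neither passed 2-fold with equal upper quartiles or after centring. Paics was the most abundant, with 150 FPKM in WT and 98.0 FPKM in KO. Adss, the other adenylosuccinate synthase, had 27.9 and 20.2, and the joint row of Impdh2, Qars and Qrich1 had 45.2 and 38.0.

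Of 14 genes of purine salvage and breakdown, none passed 2-fold in either direction. Their median log2 was -0.0209, and it was above 0 under the 3 other scalings. Adk, adenosine kinase, had 347 FPKM in WT and 357 FPKM in KO. Uox, urate oxidase, had 584 and 350, and Ak3 had 102 and 78.2.

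Folate supplies the methyl group that Tyms uses, and of 9 folate genes 3 were more than 2-fold lower and 1 more than 2-fold higher in KO. Mthfd2, a mitochondrial folate dehydrogenase, was 6.47-fold lower in KO, with 3.99 in WT and 0.616 in KO. Shmt2 had 102 in WT and 57.0 in KO, Mthfd1 had 63.4 and 38.5, and Fpgs had 50.5 and 77.3. Of the nucleoside transporters, Slc29a1 was the most abundant and had 90.5 in WT and 85.4 in KO. Slc29a3 had 0.572 and 0.561, and Slc29a2 had 0.241 and 0.202. Among the 5 transporters whose mean FPKM reached 0.1, 2 were more than 2-fold lower in KO (all genes 13.4%), and 1 was under each of the 3 other scalings. The mean FPKM of these 2 genes was only 0.176 and 0.130.

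**Figure D4:**
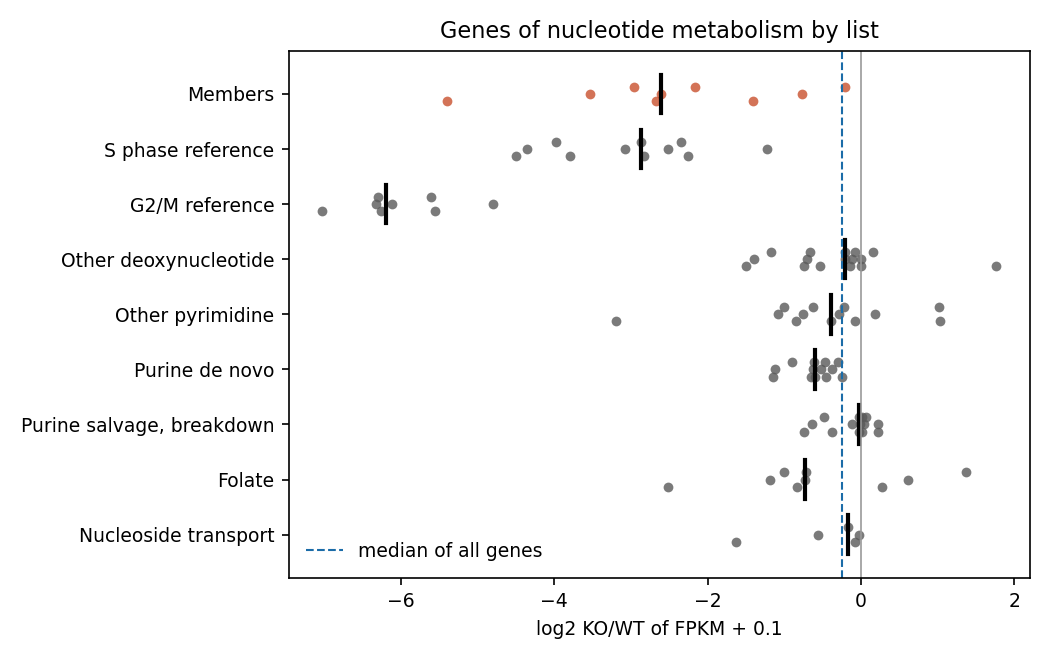
Each point is the log2 KO/WT of FPKM plus 0.1 of a gene whose mean FPKM reached 0.1, by list, black bars are medians and the dashed line is the median of all such genes (-0.25). The median of the 9 genes (-2.61) lies near that of the S phase genes (-2.87). Umps and the joint row of Cad lie to the right of all S phase genes. The medians of the 6 other lists lie between -0.74 and -0.0209, those of the salvage and other deoxynucleotide lists turning above 0 after centring.

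Lists of S phase and of G2 and mitosis give the levels of cell cycle genes in the same libraries. All 11 S phase genes were more than 2-fold lower in KO, with a median log2 of -2.87 and a summed FPKM of 197 in WT and 30.9 in KO. The most abundant were Pcna (66.8 in WT and 5.13-fold lower in KO), Mcm6 (27.2 and 1.11) and Mcm5 (21.8 and 0.967). All 8 genes of G2 and mitosis were lower by more, with a median log2 of -6.19. Cdk1 had 41.9 in WT and 0.434 in KO, Ccnb1 had 20.2 and 0.0562, and the row of Top2a, which also names SNORA32, had 18.7 and 0.170. In bulk liver, fewer cells in S phase and less of an mRNA per cell cannot be told apart, for these lists as for the 9 genes.

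Markers of hepatocytes were abundant in both libraries, with an FPKM of 2503 for Ttr in WT and 2406 in KO, and of 3061 and 3503 for Apoa1. Cps1 had 1597 and 743. Alb and Trf were in loci too deep for Cuffdiff and were left out. Of 29 markers of other liver cells whose mean FPKM reached 0.1, 26 were lower in KO, as were 74.8% of all genes at that level. Markers of other liver cells were lower in KO in sum, by 1.17-fold for erythroid cells, 1.56-fold for macrophages, 1.70-fold for endothelial cells, 1.76-fold for cholangiocytes, 1.86-fold for neutrophils, 1.98-fold for lymphocytes and 2.22-fold for stellate cells. The erythroid sum turned to the other direction after centring (0.995). The most abundant of these were Hba-a1 (139 and 113), Hbb-b1 (136 and 102) and Alas2 (20.6 and 37.5). Macrophage markers were led by Cd5l (18.4 and 10.8), Clec4f (17.3 and 10.6) and Marco (6.58 and 7.37). Stab2 (9.66 and 6.23), Pecam1 (5.21 and 3.40) and Cdh5 (4.69 and 2.60) led the endothelial, and Reln (9.56 and 6.40), Col1a1 (8.56 and 1.75) and Acta2 (5.57 and 1.26) the stellate markers. Sox9 had 1.95 and 1.78, Krt19 had 1.72 and 0.559, and Krt7 had 1.12 and 0.360. Neutrophil markers were S100a8 (6.68 and 3.33), S100a9 (6.11 and 3.48) and Elane (0.0980 and 0.109), with Mpo and Ly6g listed at 0. All 6 lymphocyte markers were below an FPKM of 1, among them Cd4 (0.340 and 0.127), Cd3g (0.157 and 0.0740) and Cd79a (0.138 and 0.0765). The ratios of the 7 deoxynucleotide genes, from 2.66 to 46.3, stand beside single markers of other cell types that were lower by as much as 4.88-fold (Col1a1). Krt7 was 3.11-fold, Krt19 3.08-fold and Cd4 2.67-fold lower, beside 2.66-fold for Dtymk. The counting intervals of these markers (2.40 to 4.00, 2.23 to 4.38 and 1.62 to 4.61) overlapped that of Dtymk (2.44 to 2.91). Those of Csf1r (2.17 to 2.73) and Lyve1 (1.93 to 2.79), among others, overlapped it too. The counting interval of Dut (4.07 to 5.15) was overlapped by those of Col1a1 (4.46 to 5.35) and Acta2 (3.63 to 5.40). The intervals of Krt19 and Cd4 also reached into that of Dut. The part of other cell types in the levels of the 9 genes was not tested.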

How the data were processed

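Hepatic RNA of 1 WT and 1 KO library was sequenced on an Illumina HiSeq 2000. The labels call the reads paired end and the methods single end, so a fragment may be a read or a read pair. Per the submitters' processing notes and the study's methods, the authors aligned reads with TopHat2 2.0.0 to mm9 (NCBI37), assembled transcripts with Cufflinks 1.3.0 and estimated 1 FPKM per locus and library with Cuffdiff. These deposited FPKM values were used as they stand. The table also holds the authors' log2 fold change, test statistic, p-value, q-value and significance columns, which were not used. The annotation given to Cufflinks and any quartile normalization are not given in the sources used here.

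Loci marked HIDATA (21) were left out, the gene column was split at commas, each symbol took the value of a joint row, and rows of a symbol were summed. Symbols were matched to GENCODE vM1 (NCBIM37), and coordinates are counted from 1. Ratios used FPKM without a pseudocount. List medians used 0.1 FPKM, so folds of low genes come out too small. Background shares cover genes whose mean FPKM reached 1, or 0.1 beside the lists. Fragments were estimated from depth (78 and 71 values of single-exon genes of at least 600 bases) and the longest coding transcript. The 95% intervals of ratios are exact conditional binomial intervals of the rounded fragments, for counting error only. Copies elsewhere in the genome were sought with megablast (at least 95% identity over 200 bases). The tools were Python 3.11.15 with scipy 1.17.1, pandas 2.3.3, numpy 2.4.6 and matplotlib 3.10.9. The steps were tested on simulated libraries, whose depth lay between the bounds used, so the bounds themselves were not tested. No test was run, since there was 1 library per group.

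Alternatives covered 3 scalings, row handling, fold thresholds, pseudocounts and the filter on low values. The members and lists were chosen with earlier results of these data known. Named were the 9 genes, Rrm2b and Tk2, the genes of each nucleotide list past 2-fold at a mean FPKM of 1 or more, and the 3 most abundant of each list, reference and marker lists included. Dguok, the neighbours of a locus and Gm6091 were named after their values were seen. Aprt and Dnph1 were not analysed here, and some folate genes that this rule names are not reported here.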

Additional observations from a re-analysis of the deposited data

How the results depend on the processing

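No paired analysis was possible because each genotype has a lone library, and for that reason no replicate could be left out either. The counts of the 9 genes past 2-fold stayed within 1.5 times under every alternative run, with 8 past 1.5-fold and 6 past 3-fold. With a pseudocount of 1 FPKM their median was -1.99 on the log2 KO/WT scale, since this shrinks low KO values, and between -2.70 and -2.39 otherwise. Of the 70 genes of the 6 other lists, the number lower in KO was 7 with equal upper quartiles, 7 after centring on the median gene, 30 past 1.5-fold and 5 past 3-fold, and the number higher in KO past 3-fold was 1. The log2 KO/WT of the joint row of Cad turned to 0.0297 after centring. The median of the other deoxynucleotide genes turned to 0.0256 after centring. That of purine salvage and breakdown turned to 0.18 with equal upper quartiles, 0.21 after centring and 0.0136 with equal sums of FPKM. Both follow from scalings that raise the median of all genes from -0.24 to values between -0.20 and -0.00385. Of the nucleoside transporters past 2-fold, 1 was left under each of the 3 other scalings. Scaling cannot be settled from these libraries. Depth limits the ratio of Rrm2 to the counting interval given, and the spread between mice was not measured.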
